A study of Mus musculus with 6 samples.

Results

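Collagen genes are those whose symbol reads Col, a type number, the letter a and a chain number. The deposited table held 44 of them among 24346 gene rows. They were taken by symbol, with earlier results of these data known. Of these, 29 averaged 1 FPKM or more across the 6 libraries, the level required for testing (FPKM are fragment counts scaled by transcript length and library size). The samples were poly(A) RNA libraries of initial segment and caput epididymis, the first stretch of the duct that carries sperm from the testis. All mice were wild-type and 12 weeks old. They had received an intraperitoneal injection of busulfan, an alkylating drug that kills dividing germ cells (3 libraries), or of its solvent DMSO (3 libraries). The dose and the interval to collection were not given in the sources used here, and neither was any statement that each library is a separate mouse.

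Collagens are triple-helical proteins assembled from 3 chains, which may be products of the same gene or of different genes. Fibroblasts secrete the fibril-forming types that give connective tissue its strength, and epithelial, endothelial and muscle cells lay down the type IV network of basement membranes. Beaded filaments of type VI link the cell surface to the fibrils, and fibril-associated collagens coat them. In the epididymis the duct stands on a basement membrane and is wrapped in smooth muscle and a vascular connective tissue.

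The promoters below belong to collagen genes on which the results turn: 4 genes of interstitial and basement membrane collagens that fell, and Col6a4, which fell furthest. Col1a1 is missing because no window was listed for it. Each window runs from 250 bases before to 50 after the RefSeq transcription start on GRCm38.p6, written 5′ to 3′ on the strand of the gene. The Col1a2 window lies wholly inside the span given for that gene below, which comes from another annotation and starts further upstream. Capitals mark the CCAAT box, the GC box (GGGCGG) and the TATA motif TATAAA, read on either strand.
Col1a2 (chr6:4505368-4505667, plus strand): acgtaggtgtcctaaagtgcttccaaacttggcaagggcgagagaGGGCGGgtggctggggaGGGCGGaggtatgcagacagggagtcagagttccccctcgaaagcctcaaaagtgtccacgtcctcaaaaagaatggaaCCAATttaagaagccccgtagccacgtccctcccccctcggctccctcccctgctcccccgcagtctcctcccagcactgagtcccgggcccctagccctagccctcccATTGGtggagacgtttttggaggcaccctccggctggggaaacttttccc
Col3a1 (chr1:45311288-45311587, plus strand): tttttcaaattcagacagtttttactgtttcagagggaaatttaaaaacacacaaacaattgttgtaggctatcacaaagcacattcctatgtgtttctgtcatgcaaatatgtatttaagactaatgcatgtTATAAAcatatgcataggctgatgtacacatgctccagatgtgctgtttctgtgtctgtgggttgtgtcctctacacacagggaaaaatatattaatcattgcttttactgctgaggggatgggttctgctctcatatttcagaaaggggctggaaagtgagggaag
Col4a1 (chr8:11312777-11313076, minus strand): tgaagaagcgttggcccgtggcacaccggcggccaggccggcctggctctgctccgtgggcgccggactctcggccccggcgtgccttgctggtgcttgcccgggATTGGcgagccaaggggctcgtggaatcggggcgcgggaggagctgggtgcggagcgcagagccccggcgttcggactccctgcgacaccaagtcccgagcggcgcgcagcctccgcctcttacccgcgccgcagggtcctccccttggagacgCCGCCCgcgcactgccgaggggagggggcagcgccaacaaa
Col4a2 (chr8:11312555-11312854, plus strand): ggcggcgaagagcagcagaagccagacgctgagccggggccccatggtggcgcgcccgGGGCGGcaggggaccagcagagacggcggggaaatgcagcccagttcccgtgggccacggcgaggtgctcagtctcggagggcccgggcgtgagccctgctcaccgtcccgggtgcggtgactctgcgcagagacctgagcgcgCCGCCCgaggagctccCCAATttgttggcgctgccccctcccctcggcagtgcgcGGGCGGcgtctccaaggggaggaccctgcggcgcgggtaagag
Col6a4 (chr9:106096642-106096941, minus strand): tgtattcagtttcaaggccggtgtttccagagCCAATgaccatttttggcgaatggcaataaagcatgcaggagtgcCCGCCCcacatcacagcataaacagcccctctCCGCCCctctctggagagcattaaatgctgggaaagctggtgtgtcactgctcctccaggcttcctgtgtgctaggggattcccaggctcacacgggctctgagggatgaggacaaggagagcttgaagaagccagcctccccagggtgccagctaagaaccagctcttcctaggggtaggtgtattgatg
The windows of Col4a1 and Col4a2 share 78 bases, because the genes lie head to head and are transcribed away from each other. The Col4a2 window held 3 GC boxes and 1 CCAAT, and the Col4a1 window 1 of each. The GC box of Col4a1 lies in the shared bases and is the same site as 1 of the 3 of Col4a2. Col1a2 held 2 CCAAT and 2 GC boxes and Col6a4 held 1 CCAAT and 2 GC boxes, whereas the Col3a1 window held a TATAAA, 117 bases before the start, and neither of the others. Its base composition was also the lowest of these, at 37.7% G and C against 74% for Col4a1 and a median of 52.7% over all windows. Of 32851 RefSeq windows, 37.4% held CCAAT, 35.7% GGGCGG and 13.6% TATAAA. A window was listed for 35 of the 44 collagen genes and for 24 of the tested ones, of which 10 held CCAAT, 17 GGGCGG and 3 TATAAA. Here a gene was counted if any of its windows held the motif, so these counts cannot be set directly against the shares of windows. These matches describe the letters and identify no binding site.

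Summed FPKM lay between 707219 and 732495 in the DMSO libraries and lower, between 625087 and 666662, in all busulfan libraries. The caput marker Gpx5, a secreted glutathione peroxidase, averaged 35290 FPKM in the DMSO group and 28640 in the busulfan group. Depth is not in the table. Spacing of the low values gave relative depths of 0.923 to 1.08, and the size of 1 fragment in 8 low collagen genes put a library at roughly 12100000 fragments (8780000 to 24800000 by gene). At that depth the tested collagen genes rested on about 83.4 to 5260 fragments each per library. Within groups the replicates numbered 3 stood at the edge: DMSO replicate 3 had the highest level of the DMSO libraries in 25 of the 29 tested collagen genes (34.2% of all tested genes), and busulfan replicate 3 the lowest of the busulfan libraries in 25 (33.8% of all). Both are part of every mean below. Counts were repeated without them, an alternative chosen after the data were seen.

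The comparison of busulfan with DMSO asks how transcripts of the proximal epididymis differ after a drug that depletes germ cells. Among the 29 tested collagen genes 13 fell, 16 did not pass and none rose (limma on log2(FPKM + 1), Benjamini-Hochberg adjusted p under 0.05 over 12848 genes). Over all genes tested, 22.1% were lower and 20.8% higher, 42.8% in either direction, so 44.8% of collagen genes lower is a larger share than the 22.1% in the background. Their median log2 change was -0.21, against -0.003 for all genes. A call together with a log2 change of -0.5 or below was reached by 9 of the 29, against 8.74% of all tested genes. Groups did not overlap, with busulfan lower, in 14 of the 29, against 27.7% of all genes, and in none with busulfan higher (26.9% of all). With both replicates numbered 3 left out, 9 collagen genes were lower and 1, Col23a1, was higher, against 17.7% lower and 15% higher of all genes in that fit. Scaling every library to the same sum, which removes the difference in summed FPKM between the groups, also gave 9 lower and 1 higher, against 12.4% lower and 35.6% higher of all genes. That scaling moved the median of all genes by 0.13 on the log2 scale and turned the split over all genes from 2833 lower and 2668 higher to 1594 lower and 4578 higher; quantile normalization gave 2302 lower and 3228 higher.

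**Figure D1:**
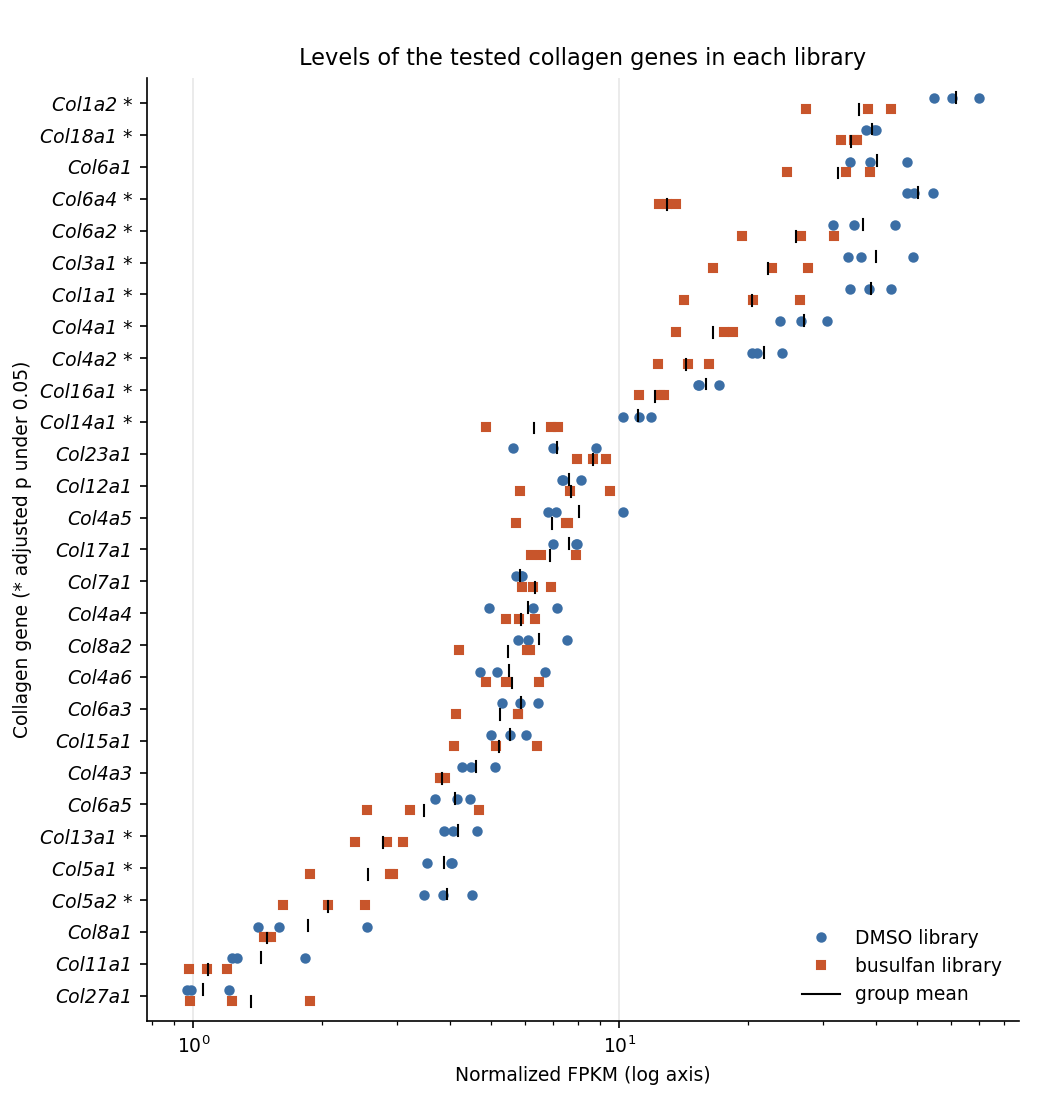
Normalized FPKM (log axis) of the 29 tested collagen genes in each of the 3 DMSO libraries (circles) and 3 busulfan libraries (squares), ordered by mean level over all 6, with group means as vertical bars and an asterisk on the genes past the threshold. Col6a4 shows the widest gap between the groups, at 47.3 to 54.6 FPKM against 12.4 to 13.6.

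In all, the summed level of the 44 genes was 458, 445 and 528 FPKM under DMSO and 365, 329 and 267 FPKM after busulfan. The ratio of the means was 0.672, and it was 0.721 with Col6a4 set aside. No single gene dominated the sum, and Col1a1, Col1a2 and Col3a1 together made up 29.5% of it in the DMSO group. The order of the levels differed between the groups. By DMSO mean it ran from Col1a2 (61.6 FPKM) and Col6a4 (50.3) through Col6a1 (40.3), Col3a1 (40) and Col18a1 (39.2) to Col1a1 (38.9) and Col6a2 (37.2). By busulfan mean it ran from Col1a2 (36.4 FPKM), Col18a1 (34.95) and Col6a1 (32.5) through Col6a2, Col3a1 and Col1a1 to Col4a1 (16.5) and Col4a2 (14.35), with Col6a4 (12.95) after them. Neighbours in each order had overlapping ranges, except that Col1a2 lay above Col6a4 in the DMSO libraries. These levels are per length of transcript and can be set against each other.

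Of the fibril-forming collagens 5 of 7 tested genes fell (71.4%, against 22.1% of all tested genes), and the median log2 change of the 7 was -0.69. Col1a1 (NCBI gene 12842; chromosome 11, 94936224 to 94953042) and Col1a2 (NCBI gene 12843; chromosome 6, 4504814 to 4541544) encode the chains of type I collagen, the main protein of interstitial fibrils. Col1a1 stood at 38.6, 34.7 and 43.3 FPKM under DMSO and at 26.5, 20.6 and 14.2 FPKM after busulfan. The groups did not overlap, and the mean fell from 38.9 ± 4.31 to 20.4 ± 6.15 FPKM (SD, n = 3), a log2 change of -0.93 ± 0.19 (SE; limma adjusted p = 0.00524). Col1a2 stood at 60.3, 54.8 and 69.8 FPKM against 43.5, 38.3 and 27.5 FPKM, again without overlap. It kept 59.1% of its DMSO level (log2 change -0.76 ± 0.16, limma adjusted p = 0.00554). Col3a1, the only chain of type III collagen (NCBI gene 12825; chromosome 1, 45311538 to 45349706), stood at 36.9, 34.4 and 48.8 FPKM against 27.7, 22.8 and 16.6 FPKM. It kept 55.8% (log2 change -0.83 ± 0.18, limma adjusted p = 0.00776). For each of these genes busulfan replicate 3 was the lowest library and DMSO replicate 3 the highest; without both, the log2 changes were -0.63, -0.48 and -0.49 and remained past the threshold (limma adjusted p of 0.00757 to 0.0135). In bulk tissue, fewer cells of a type and less RNA per cell cannot be told apart.

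Type V collagen is incorporated into type I fibrils and limits their diameter. Its chain genes Col5a1 and Col5a2 were present at lower levels. Col5a2 stood at 3.85, 3.48 and 4.52 FPKM under DMSO against 2.53, 2.07 and 1.62 FPKM with busulfan, and kept 52.5% (log2 change -0.69 ± 0.13, limma adjusted p = 0.00368). Col5a1 stood at 4.05, 3.54 and 4.02 FPKM against 2.95, 2.9 and 1.87 FPKM. Its groups did not overlap either, but its call (limma adjusted p = 0.0244) was lost without DMSO replicate 1 or 3, without both replicates numbered 3 and with equal-sum scaling (0.0722 to 0.0891). Col5a2 lies tail to tail with Col3a1 on chromosome 1, 24614 bases away, with no protein-coding gene between them. Col11a1 and Col27a1, fibrillar chains best known from cartilage, stood at 1.44 ± 0.337 and 1.06 ± 0.135 FPKM in the DMSO group and 1.08 ± 0.113 and 1.37 ± 0.464 FPKM with busulfan, neither past the threshold (limma adjusted p = 0.211 and 0.37).

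Among the fibril-associated collagens, which sit on the surface of fibrils, 2 of 3 tested genes fell (66.7%, against 22.1% of all tested genes). A share of 3 genes says little about the class. Col14a1 stood at 11.1, 10.2 and 11.8 FPKM against 6.91, 7.18 and 4.87 FPKM, so that 57.2% remained (log2 change -0.73 ± 0.13, limma adjusted p = 0.00228). Col16a1 stood at 15.3, 15.4 and 17.2 FPKM against 12.7, 12.4 and 11.1 FPKM, a smaller fall to 76% (limma adjusted p = 0.00426; 0.0619 with equal-sum scaling). Both were without overlap. Col12a1, a relative of Col14a1, stood at 7.32, 7.38 and 8.14 FPKM against 9.53, 7.67 and 5.86 FPKM. The busulfan libraries lay on both sides of the DMSO libraries, and the 95% interval of its log2 change ran from -0.33 to 0.32.

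**Figure D2:**
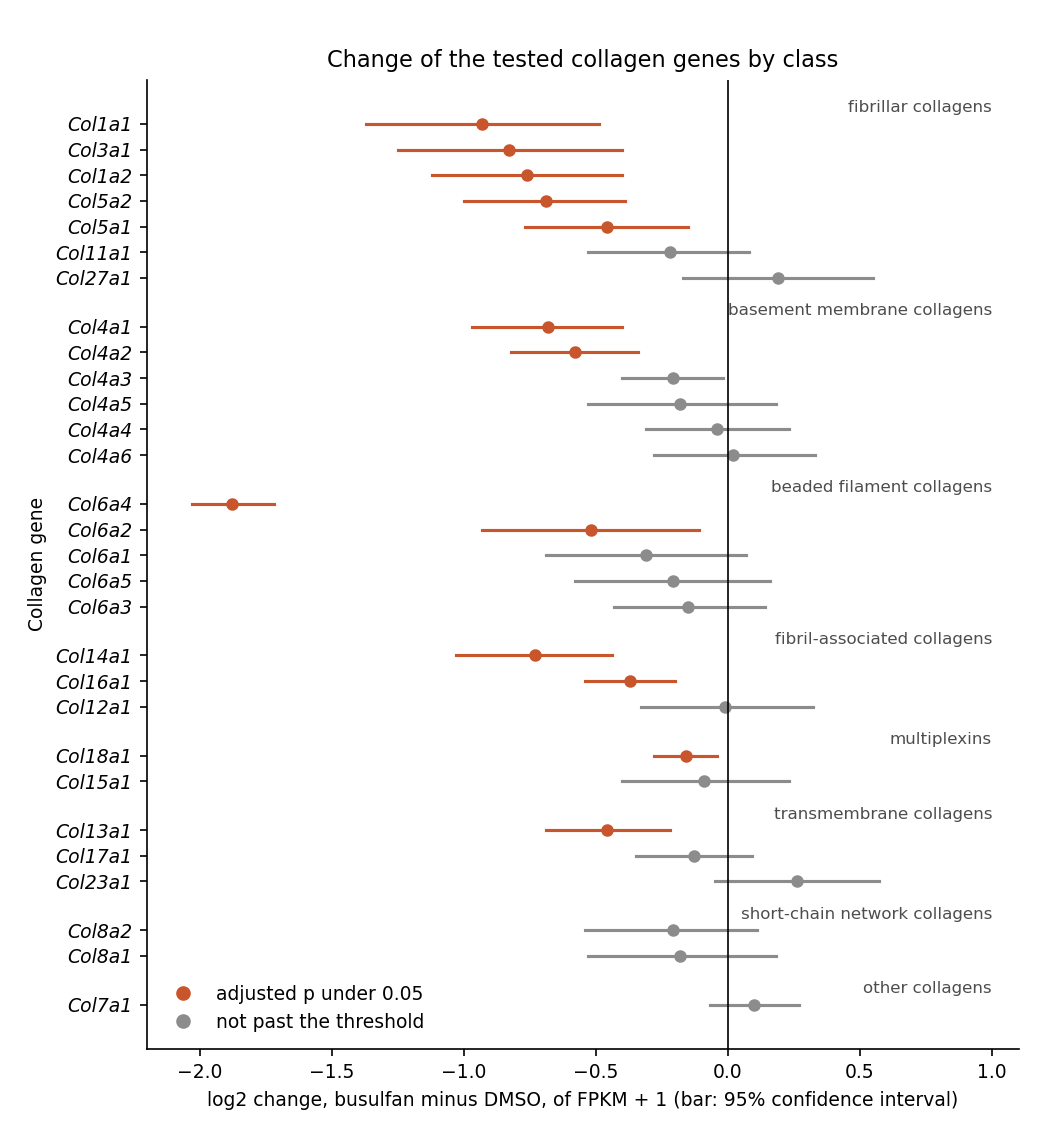
Log2 change of FPKM + 1, busulfan minus DMSO, with 95% confidence intervals from limma, for the 29 tested collagen genes by class (3 libraries per group); orange marks an adjusted p under 0.05. The fibrillar chains lie between -0.93 and 0.19, and Col6a4 stands alone at -1.88.

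Type IV collagen forms the sheet of basement membranes, and its 6 genes lie as head-to-head pairs on 3 chromosomes. Col4a1 and Col4a2, which encode the widespread network, were lower, and Col4a3, Col4a4, Col4a5 and Col4a6 did not pass. Col4a1 (NCBI gene 12826; chromosome 8, 11198423 to 11312826) stood at 23.8, 26.7 and 30.7 FPKM under DMSO and at 18.5, 17.6 and 13.6 FPKM with busulfan. It kept 61.1% (log2 change -0.68 ± 0.12, limma adjusted p = 0.00291). Col4a2 (NCBI gene 12827; chromosome 8, 11312805 to 11449287) stood at 20.5, 21 and 24.1 FPKM against 16.2, 14.5 and 12.3 FPKM and kept 65.6% (log2 change -0.58 ± 0.10, limma adjusted p = 0.00248). Neither gene's groups overlapped, and busulfan replicate 3 was again the lowest. The other 4 genes encode chains with a narrower distribution, found for example in the kidney glomerulus. Col4a3 averaged 4.62 ± 0.436 FPKM in the DMSO group and 3.84 ± 0.0547 FPKM with busulfan; its groups did not overlap, but limma gave an adjusted p of 0.0671, and it was called lower with quantile normalization (0.0442) and without the mean-variance trend (0.0453). For Col4a4, Col4a5 and Col4a6 the groups overlapped, with means of 6.12, 8.03 and 5.52 FPKM in the DMSO group and 5.86, 6.93 and 5.6 FPKM with busulfan. Their 95% intervals of the log2 change were -0.31 to 0.23, -0.53 to 0.18 and -0.28 to 0.33. Col4a1 relative to Col4a5 fell from 3.36, 3.93 and 3.01 in the DMSO libraries to 2.44, 2.34 and 2.37 with busulfan, without overlap. This ratio was chosen after the values were seen, so no test of it is given. Within the library, no scaling between libraries can move it.

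The multiplexins Col15a1 and Col18a1 also belong to basement membranes, and the C-terminal piece of the Col18a1 product is endostatin. Col18a1 stood at 40, 39.5 and 38 FPKM against 33.2, 36.1 and 35.6 FPKM, a fall to 89.2% (limma adjusted p = 0.0379). That small difference lost its call when any library was left out (0.0501 to 0.107) and shrank to a log2 change of -0.01 with equal-sum scaling. Col15a1 averaged 5.52 ± 0.508 and 5.21 ± 1.16 FPKM and did not pass.

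Beaded filaments of type VI contain the products of Col6a1 and Col6a2 with a longer chain, which may come from Col6a3, Col6a4, Col6a5 or Col6a6. The last 3 genes stand in tandem on mouse chromosome 9, with 27917 and 28810 bases between neighbours. Col6a4 (NCBI gene 68553; chromosome 9, 105989454 to 106096783) stood at 49.1, 54.6 and 47.3 FPKM under DMSO and at 13.6, 12.9 and 12.4 FPKM after busulfan. It fell 3.89-fold, from 50.3 ± 3.78 to 12.95 ± 0.61 FPKM (log2 change -1.88 ± 0.07, limma adjusted p = 3.67e-07). Its fall was the 186th largest on the log2 scale among the 12848 tested genes. Unlike for the interstitial collagens, DMSO replicate 3 was its lowest DMSO library. Busulfan replicate 3 was its lowest busulfan library, as it was for them, but its busulfan libraries lay close together. With both replicates numbered 3 left out the log2 change was -1.89.

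The neighbours and partners of Col6a4 had smaller fitted changes. Col6a5 stood at 4.45, 3.7 and 4.17 FPKM against 4.67, 3.22 and 2.56 FPKM and did not pass (limma adjusted p = 0.325), although it was called without busulfan replicate 1 (0.0317). Col6a6, named after its values were seen, was low, at 0.144 to 0.245 FPKM in the DMSO libraries and 0.0843 to 0.219 with busulfan. Col6a3 averaged 5.86 ± 0.577 and 5.23 ± 0.95 FPKM (limma adjusted p = 0.371). Col6a1 stood at 38.8, 34.7 and 47.3 FPKM against 38.8, 34 and 24.7 FPKM, with overlapping groups and no call (limma adjusted p = 0.163). Col6a2 stood at 35.6, 31.8 and 44.4 FPKM against 31.9, 26.7 and 19.4 FPKM. Its groups overlapped and its call (limma adjusted p = 0.0464) was lost in 10 of 15 alternatives, so it lies at the threshold. The ratio of Col6a4 to Col6a1 was chosen after the values were seen. It was 1.27, 1.57 and 0.999 under DMSO and 0.35, 0.38 and 0.5 with busulfan. Per length of transcript, Col6a4 was thus level with Col6a1 or above it under DMSO and below it in every busulfan library.

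Ratios of chains within a library were compared for 10 pairs by an exact two-sided permutation test, whose smallest possible p for 3 against 3 libraries is 0.1. No pair could therefore pass a threshold of 0.05, and adjusted over the 10 pairs the lowest value was 0.25. The groups did not overlap for 4 pairs. Col1a1 relative to Col1a2 went from 0.64, 0.634 and 0.621 to 0.609, 0.538 and 0.517. Col6a1 relative to Col6a2 went from 1.09, 1.09 and 1.07 to 1.22, 1.27 and 1.28. Both sets of DMSO libraries were tightly grouped. Col5a1 relative to Col5a2 went from 1.05, 1.02 and 0.889 to 1.17, 1.4 and 1.16, and Col4a3 relative to Col4a4 from 0.864, 0.716 and 0.715 to 0.615, 0.706 and 0.65. The ratio of Col4a1 to Col4a2, by contrast, overlapped between groups (1.16, 1.27 and 1.27 against 1.14, 1.21 and 1.11; exact permutation p = 0.2). Type I against type VI, chosen after the values were seen, gave a Col1a1 to Col6a1 ratio of 0.995, 1 and 0.915 in the DMSO libraries and 0.682, 0.606 and 0.575 with busulfan.

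**Figure D3:**
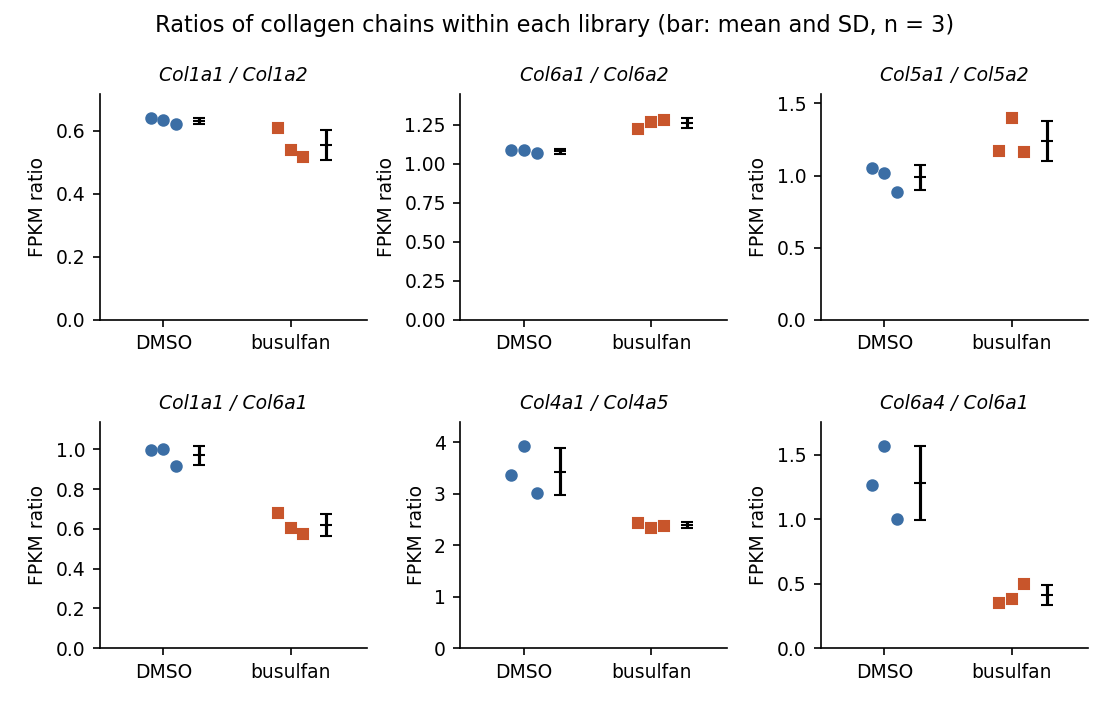
Ratio of the FPKM of 2 collagen genes within each library, for 6 pairs, in 3 DMSO libraries (circles) and 3 busulfan libraries (squares), with the mean and SD beside them. Only pairs whose groups do not overlap are shown, and the planned pairs with overlap are left out. The ratios of Col1a1 to Col6a1, Col4a1 to Col4a5 and Col6a4 to Col6a1 were chosen after the values were seen. Of those shown, the ratio of Col6a4 to Col6a1 has the widest separation, at 0.999 to 1.57 against 0.35 to 0.5.

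Of the transmembrane collagens 1 of 3 tested genes fell (33.3%, against 22.1% of all tested genes), too few to read as a result about the class. Col13a1, a transmembrane collagen of cell adhesion sites, stood at 4.07, 3.87 and 4.63 FPKM against 3.11, 2.85 and 2.4 FPKM. It kept 66.5% (log2 change -0.46 ± 0.10, limma adjusted p = 0.008; 0.058 without both replicates numbered 3). Col17a1, a hemidesmosome protein of basal epithelial cells, averaged 7.61 ± 0.545 and 6.89 ± 0.896 FPKM and did not pass. Col23a1 stood at 5.64, 7 and 8.81 FPKM against 9.32, 8.66 and 7.97 FPKM. Its groups overlapped through DMSO replicate 3, and it was called higher without that library (limma adjusted p = 0.0251), without both replicates numbered 3 (0.0254) and with equal-sum scaling (0.046), but not with all libraries (0.154). Col7a1, the anchoring fibril collagen, averaged 5.84 ± 0.101 and 6.35 ± 0.515 FPKM, and the short-chain Col8a1 and Col8a2 averaged 1.86 and 6.48 FPKM in the DMSO group against 1.49 and 5.49 FPKM. None of these 3 passed.

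The 15 collagen genes under 1 FPKM were not tested in the comparison above. The highest of them were Col5a3, Col9a2 and Col20a1, at 0.538 to 0.699 FPKM on average and with overlapping groups. None was at 0 in every library, and 6 had a 0 in some library. For 8 of them all 6 values were whole multiples of a common step within 0.05, once relative depth was allowed for, so that a number of fragments could be inferred. The step was the smallest value above 0 divided by at most 3, so these numbers may be off by a whole factor. The following low genes are named after their values were seen. Col28a1, a collagen of peripheral nerve (chromosome 6, 7997808 to 8192617), came to 15, 7 and 14 fragments under DMSO and to 0, 1 and 2 after busulfan. The groups did not overlap, and without the filter on low values it was called lower (limma adjusted p = 0.0172). Col24a1 came to 4, 2 and 5 fragments against 0, 1 and 0 and was not called (0.325). Going the other way, Col11a2 stood at 0.128, 0.184 and 0.131 FPKM against 0.441, 0.39 and 0.215 FPKM, without overlap, and limma without the filter gave an adjusted p of 0.0527. Col9a3 came to 3, 1 and 2 fragments against 6, 3 and 6. The cartilage collagens Col2a1 and Col10a1 reached at most 3 fragments in any library, too few to compare.

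Enzymes that modify, fold, trim and crosslink collagen were read from lists of the pathway. Prolyl and lysyl hydroxylases and glycosyltransferases act on the chains in the endoplasmic reticulum. Of 13 tested, 2 fell (15.4%), 2 rose (15.4%) and 9 did not pass, shares below those of all tested genes (22.1% lower and 20.8% higher), beside which the lists below are also to be read. P4ha2, a catalytic subunit of collagen prolyl hydroxylase, stood at 61.8, 71 and 71.4 FPKM under DMSO and at 2.72, 2.52 and 2.88 FPKM with busulfan. This 25.2-fold fall (log2 change -4.22 ± 0.07, limma adjusted p = 6.71e-09) exceeded that of every tested collagen gene. Its paralog P4ha1, named after its values were seen, averaged 4.53 ± 0.20 and 4.61 ± 0.462 FPKM (limma adjusted p = 0.879). Colgalt1, which adds galactose to hydroxylysine, rose 1.45-fold, and P3h4 rose 1.27-fold. Of 9 tested genes of folding and export, 3 fell (33.3%). The vesicle coat genes Sec23a and Sec24d fell to 10.9 ± 0.65 and 36.1 ± 0.87 FPKM from 17.2 ± 0.871 and 52.8 ± 2.19 FPKM, the collagen chaperone gene Serpinh1 fell 1.23-fold, 1 gene rose and 5 did not pass.

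After secretion, propeptides are removed and fibrils are crosslinked. Lower levels were found for 8 of the 10 tested genes of these steps (80%, against 22.1% of all genes) and higher levels for none (20.8% of all), and the median log2 change was -0.57. Loxl3, a lysyl oxidase family member, stood at 3.45, 3.56 and 3.83 FPKM against 1.49, 1.45 and 0.929 FPKM (log2 change -1.02 ± 0.12, limma adjusted p = 0.000322). The transglutaminase gene Tgm2 fell from 68.1 ± 3.49 to 41.3 ± 2.44 FPKM. Pcolce, which enhances removal of the C-propeptide, fell from 26.8 ± 2.23 to 16.3 ± 3.14 FPKM. Busulfan replicate 3 was again the lowest library for all 3 genes. Of 8 tested receptors and uptake genes, 2 fell and 2 rose (25% each, near the shares of all genes), among them the adhesion receptor gene Adgrg1 (1.51-fold higher), Ddr1 (1.22-fold higher) and Cd36 (1.54-fold lower). Of 9 genes of collagen cleavage 2 fell (22.2%, about the share of all genes). The proline peptidase genes Pepd and Prep were 1.36 and 1.24 times lower, while 7 were not called, including the collagenase gene Mmp14 (53.5 ± 0.991 and 54.7 ± 0.236 FPKM), which is named after its values were seen.

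**Figure D4:**
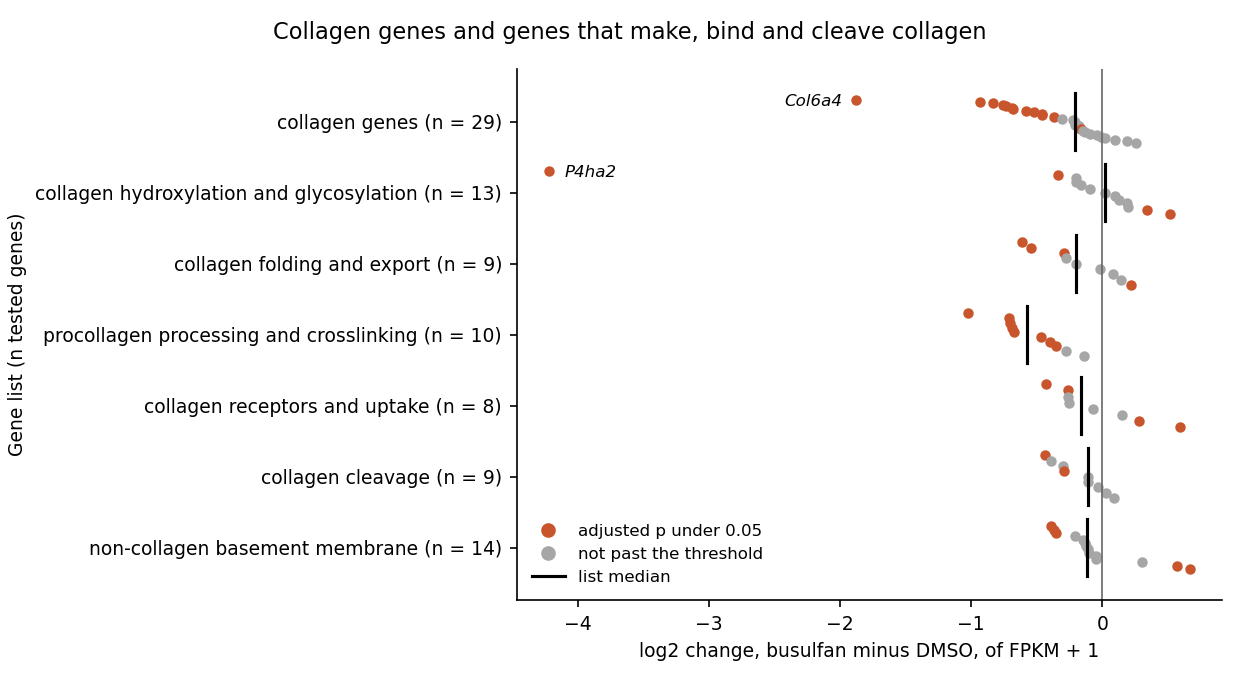
Log2 change of FPKM + 1, busulfan minus DMSO, of each tested gene in the collagen family and in 6 lists of genes that make, bind or cleave collagen or lie beside it in basement membranes; orange marks an adjusted p under 0.05 and the black bar the list median. The processing and crosslinking list has a median of -0.57, and P4ha2 lies at -4.22.

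Of the non-collagen basement membrane genes 3 of 14 were lower (21.4%) and 2 higher (14.3%), not above the shares of all tested genes (22.1% and 20.8%), and the median log2 change was -0.11. The laminin chain genes Lama5 and Lama1 rose 1.7-fold and 1.61-fold, to 10.4 ± 1.11 and 6.2 ± 0.475 FPKM, while Nid1, which links laminin to type IV collagen, fell 1.35-fold. Of 19 tested genes that regulate collagen transcription, 4 fell (21.1%), 3 rose (15.8%) and 12 did not pass, again not above the shares of all genes. Cebpb fell 3.15-fold. Tgfb1, the gene of the growth factor that raises collagen synthesis in fibroblasts, stood at 38, 41.7 and 57.6 FPKM against 18.4, 16.7 and 17.1 FPKM (log2 change -1.32 ± 0.14, limma adjusted p = 0.000142). Ets1 fell 1.76-fold. Tgfbr2, a TGF-beta receptor gene, fell 1.5-fold (log2 change -0.54, limma adjusted p = 0.00237). By contrast, another TGF-beta receptor gene, Tgfbr1, rose (1.28-fold, limma adjusted p = 0.000834). The others that rose were the gene of the TGF-beta signal mediator Smad3 (1.31-fold, 0.0012) and Scx, a transcription factor gene of tendon (1.41-fold, 0.0134). Tgfbr2 and the 3 genes that rose are named after their values were seen.

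Markers of the cells that could supply collagen were set beside these results. Fibroblast markers summed to 611.9 to 742.5 FPKM under DMSO and 467.5 to 577.4 FPKM with busulfan, or 80.4% of the DMSO level, beside 56.3% for Col1a1, Col1a2 and Col3a1. Among 13 tested, 5 were called lower (38.5%, against 22.1% of all genes) and none higher (20.8% of all), and the median log2 change was -0.25. Pdgfra, the receptor gene that marks many fibroblasts, fell 3.71-fold, from 61.2 ± 5.79 to 16.5 ± 1.59 FPKM, and without it the marker sum stood at 85.8% of DMSO. Dcn, the fibril-binding proteoglycan decorin, stood at 190 ± 27.1 and 160 ± 24.5 FPKM and did not pass (limma adjusted p = 0.162). Gsn stood at 323 ± 34.4 and 280 ± 22.1 FPKM and did not pass either (limma adjusted p = 0.0926). Dcn and Gsn made up most of the marker sum, so its percentages mainly reflect these 2 genes and not the other fibroblast markers. Endothelial markers summed to 170 to 183 FPKM against 92.3 to 107 FPKM, or 55.6%, beside 63.1% for Col4a1 and Col4a2, and 10 of 13 fell (76.9%), none rose. Plvap, a protein gene of fenestrated endothelium, fell 8.13-fold, from 41.4 ± 4.81 to 5.09 ± 0.692 FPKM, and without it the endothelial sum was 68.9% of DMSO. Egfl7, the highest of the 13 under DMSO, stood at 42.7 ± 0.86 and 41.5 ± 1.76 FPKM and did not pass (limma adjusted p = 0.543). Plvap and Egfl7 carried much of the endothelial sum, so its percentages lean on these genes. Smooth muscle markers other than Actg2 summed to 104% of the DMSO level and none of those 8 passed, while Actg2 itself fell 30.8-fold. Pericyte, basal cell and macrophage markers summed to 99.3%, 111% and 109%, with 2 of 7, 3 of 6 and 1 of 8 higher (28.6%, 50% and 12.5%) and 1, 2 and 1 lower (14.3%, 33.3% and 12.5%). Of 9 epithelial markers 6 fell (66.7%) and 2 rose (22.2%), and of 5 tested germ cell markers 4 fell (80%), with sums of 38.8 to 57.5 FPKM in the DMSO libraries and 7.68 to 21.5 FPKM with busulfan. No list had all of its markers at 0. The part of these shifts in the collagen results was not tested.

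**Figure D5:**
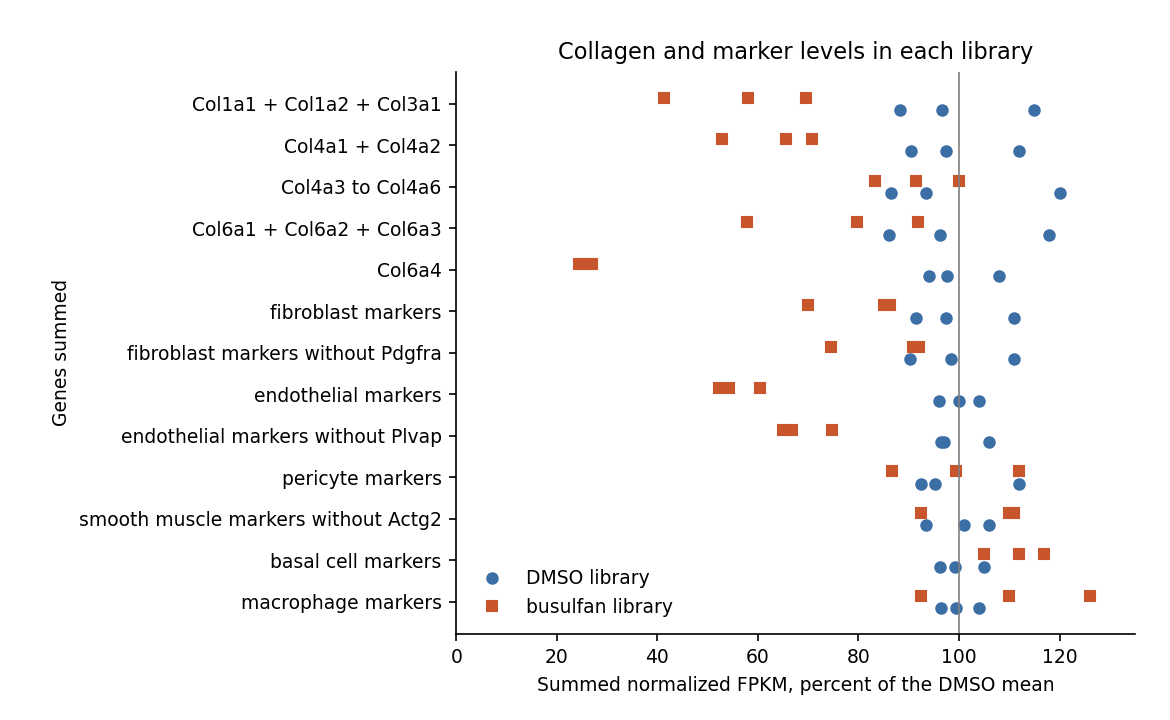
Summed normalized FPKM of collagen genes and of marker lists in each library, as a percentage of the DMSO mean (circles, 3 DMSO libraries; squares, 3 busulfan libraries; line, 100%). Col6a4 lies at 24.5% to 27% in the busulfan libraries, the type I and III sum at 41.4% to 69.5%, and the smooth muscle markers without Actg2 at 92.4% to 111%.

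Overlapping annotation touches some of these genes. Col4a1 and Col4a2 overlap by 22 bases at their starts on opposite strands. Col18a1 and Col10a1 overlap Slc19a1 and Nt5dc1 on the other strand. Col6a4 overlaps 3 noncoding genes on the other strand. The kit keeps strand, but the strand setting of the quantification was not given in the sources used here, so fragments of such partners cannot be told apart.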

How the data were processed

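RNA from 3 DMSO and 3 busulfan samples was sequenced by the submitters from stranded poly(A) libraries (TruSeq), per the labels' protocols. The authors deposited normalized FPKM per gene and library, a unit named per the file headers. TopHat2 2.1.1, Cufflinks 2.2.1 and build mm10 are named per the submitters' processing notes. The sources used here do not give the annotation, the strand setting or the normalization between libraries. FPKM scale by library, so large falls of abundant genes can raise other values.

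The 12848 genes averaging 1 FPKM or more entered limma 3.58.1 as log2(FPKM + 1) (R 4.3.3, with a mean-variance trend, all 6 libraries, group as the only term), which was checked on simulated data. The simulated data had independent noise and far fewer changed genes than were called here. That check therefore does not cover shifts that many genes of a library share. Values of log2 change are busulfan minus DMSO and understate the change of low genes. P-values were adjusted by Benjamini-Hochberg over all 12848 genes with a threshold of 0.05. Nothing says that the samples are separate mice, so p-values reflect only their spread, possibly a technical one. Members and gene lists were chosen with earlier results of these data known. Named genes were all collagen genes of at least 1 FPKM, the 3 highest below it, and up to 3 called genes per pathway list; any other collagen or pathway gene is marked in the text as picked with its values known, and cell markers come from the marker lists.

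Relative depth came from the ratio of low values between libraries, found on genes under 0.5 FPKM, of which 62% (2438 of 3933) had whole multiples in all libraries within 0.05. It also carries the authors' normalization and is rough, and the fragment numbers cover counting only. No library pair had identical values. Coordinates are from GENCODE M21 (GRCm38, the same assembly as mm10), matched by symbol; promoters are from RefSeq. Alternatives were pseudocount, filter, scaling, trend, replicate block and leaving out libraries.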

Additional observations from a re-analysis of the deposited data

How the results depend on the processing

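Across 15 alternatives the count of lower collagen genes stayed between 9 and 13 and their median log2 change between -0.29 and -0.09. The collagen genes fitted numbered 29, except 21 with the filter of 5 FPKM (10 lower) and 44 without a filter (13 lower). Over all genes the alternatives gave 1594 to 2899 lower and 1934 to 4578 higher, of 9166 to 18750 tested. Leaving out each library in turn gave 10 to 13 lower, 0 to 1 higher (Col23a1, without DMSO replicate 3) and medians of -0.29 to -0.18. In those fits 2310 to 2702 of all genes were lower and 2112 to 2410 higher, of 12820 to 12853 tested. Of the 13 collagen genes called lower, 8 (Col1a1, Col1a2, Col3a1, Col4a1, Col4a2, Col5a2, Col6a4 and Col14a1) kept the call in each alternative that tested them (15, or 14 for Col5a2, which lies below the filter of 5 FPKM); Col6a2 and Col18a1 lost it most often. Equal-sum scaling gave 1594 genes lower and 4578 higher over all genes and 1 collagen gene higher; it adds 0.13 to the median log2 change of all genes, by its construction. Leaving out both replicates numbered 3, chosen after seeing the data, gave 1 collagen gene higher. Same-numbered libraries did not deviate together (r of -0.18, -0.02 and -0.18 across genes). This check cannot exclude that same-numbered samples were paired, since deviations within a group of 3 must sum to 0. The labels give replicate numbers only. With the replicate block 11 collagen genes were lower and none higher, with 2423 lower and 2204 higher over all genes. None of the 60 leave-out values of the chain ratios moved by more than the spread between libraries. That outcome was fixed in advance, because leaving out 1 of 3 libraries cannot move a group mean that far. It therefore says nothing on how stable the ratios are. Depth limits the 15 genes under 1 FPKM, several of which rest on under 10 fragments per library.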
